A study of Rattus norvegicus with 10 samples.

Results

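The Dlk1-Dio3 region of rat chromosome 6 is an imprinted domain that carries one of the largest microRNA clusters of the genome, and its genes were followed in the cortex 3 hours after permanent occlusion of the middle cerebral artery. The genes were chosen by name. Of 47 named genes, 42 were listed alone for a probe set and make up the members described here, namely 39 microRNA genes together with Dlk1, Meg3 and Dio3. The other 5 (Rian, Rtl1, Mir341, Mir370 and Mir409a) were not listed under these symbols for a single-symbol probe set, although the array holds Mir409, whose RefSeq mature sequences are named miR-409a and which is described among the further microRNA genes below. No member had more than 1 probe set. The members are compared with the 18511 single-symbol probe sets, called all probe sets from here, with 310 microRNA genes that lie elsewhere in the genome, and with 14 further microRNA genes between Dlk1 and Dio3.

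RNA of the left cortex was hybridised to Affymetrix Rat Gene 2.0 ST arrays, 1 array per animal, 10 male adult Sprague-Dawley rats in all. Sham rats (n = 4) had the surgery without the filament. The paper's methods describe an injection only for the rats with occlusion, so that occlusion and injection cannot be told apart against sham. MCAO rats (n = 3) had a permanent left occlusion by an intraluminal suture and received vehicle, 1% BSA in PBS, and MCAO+NRG1 rats (n = 3) had the same occlusion and received the EGF-like domain of neuregulin-1β, a growth factor that acts through ErbB receptors, into the internal carotid artery just before it. The tissue was the whole left cortical piece, which holds neurons, glia and vessels, so that fewer cells of a type and less RNA per cell cannot be told apart.

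In imprinted domains the 2 parental copies of a gene differ in use. From work in mouse and human, Dlk1, Rtl1 and Dio3 are expressed from the paternal chromosome and code for proteins, whereas Meg3, the antisense transcript of Rtl1, Rian and Mirg are long noncoding RNAs of the maternal chromosome. The microRNA genes lie along these maternal RNAs, read in the same direction, and are known for their expression in neurons. A microRNA is cut from a hairpin in such a transcript, and the bases of its seed, positions 2 to 8, select the messenger RNAs that it represses. MiR-134 is known from rat hippocampal neurons, where it limits the size of dendritic spines through Limk1.

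For 7 microRNA genes the fall from sham to MCAO passed an adjusted p under 0.05 in limma on the deposited scale. It also passed after each array was centred on its median. For this reason their mature sequences are printed. They are RefSeq sequences of the GRCr8 assembly, 5′ to 3′, with the seed in capitals. The hairpins lie on the plus strand at chr6:134306500-134306582 (Mir673), chr6:134546235-134546311 (Mir380), chr6:134547913-134548009 (Mir329), chr6:134552405-134552484 (Mir543), chr6:134563598-134563673 (Mir539), chr6:134569944-134570023 (Mir382) and chr6:134570313-134570385 (Mir134). These are positions of the RefSeq genes, not of the probes.
rno-miR-673-5p: cUCACAGCuccgguccuuggag
rno-miR-673-3p: uCCGGGACugaguucugugcac
rno-miR-380-5p: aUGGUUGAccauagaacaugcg
rno-miR-380-3p: uAUGUAGUaugguccacaucu
rno-miR-329-5p: aGAGGUUUucugggucucuguuuc
rno-miR-329-3p: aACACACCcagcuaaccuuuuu
rno-miR-543-5p: aAGUUGCCcgcguguuuuucg
rno-miR-543-3p: aAACAUUCgcggugcacuucu
rno-miR-539-5p: gGAGAAAUuauccuuggugugu
rno-miR-539-3p: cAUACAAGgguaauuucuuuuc
rno-miR-382-5p: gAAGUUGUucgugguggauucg
rno-miR-382-3p: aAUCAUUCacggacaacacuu
rno-miR-134-5p: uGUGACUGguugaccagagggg
rno-miR-134-3p: cUGUGGGCcaccuagucaccaa

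All 39 member microRNA genes were matched in the RefSeq table, with 72 mature sequences and 68 distinct seeds. The 26 mature sequences of the 13 microRNA genes called between MCAO and sham had 26 distinct seeds, so that no 2 of them shared one. Of the 7 genes above, the seed ACACACC of miR-329-3p was shared with miR-362-3p, whose gene lies outside the region, and the seed AUACAAG of miR-539-3p with miR-381-3p, whose gene is a member. The 36 hairpins with a sequence were 61 to 114 bases long and held 28.6% to 72.4% G and C. The median G and C content was 45.4% in the 12 called hairpins and 45.4% in the others. Across the 36 genes, which share the same arrays, Spearman's rho was −0.09 between G and C content and the difference of MCAO from sham. The probe sets are named for microRNA genes, and whether they bound primary transcripts, hairpins or mature forms was not given in the sources used here.

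In every array the mean level of 10 neuron markers lay between 10.94 and 11.27 log2 and that of 6 cortical layer markers between 8.52 and 8.83. The mean of 8 striatal markers was also high, 7.85 to 9.20, so that the labelled cortex showed its own markers together with striatal ones. Levels are deposited log2 values. The background level was set at 4.65 log2, the level that 95% of 1360 olfactory and vomeronasal receptor probe sets stayed under. By this measure 12604 of all single-symbol probe sets (68.1%) but only 11 of the 42 members had a mean above background. The median of an array lay at 6.05 to 6.11 for sham, at 5.80, 5.82 and 6.12 for MCAO, and at 5.79 to 5.81 for MCAO+NRG1. Over all probe sets the median difference was −0.16 log2 for MCAO against sham and −0.24 for MCAO+NRG1 against sham, and members are therefore also given after median centring, which removes this shift.

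Of the 42 members, 14 were called lower in MCAO than in sham and none higher (limma, Benjamini-Hochberg adjusted p under 0.05 over all probe sets), beside 5.61% called lower and 1.1% called higher among all 18511. The 14 were Meg3, Mir673, Mir493, Mir337, Mir434, Mir380, Mir323, Mir329, Mir543, Mir539, Mir382, Mir134, Mir485 and Mir369. The median difference over the members was −0.55 log2, and 39 of the 42 differences were below 0 (69.0% of all probe sets). Only Mir136 (0.15), Mir299 (0.10) and Mir376c (0.11) lay above 0, and none of these 3 passed. Every MCAO array was below every sham array for 26 members, which 17.8% of all probe sets showed. At an unadjusted p under 0.05, 28 members passed, against 29.0% of all probe sets.

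After median centring, 7 members stayed called lower, Mir673, Mir380, Mir329, Mir543, Mir539, Mir382 and Mir134, beside 1.06% of all probe sets, and none was called higher, beside 2.2%. The median of the members was then −0.39 log2, and 39 of 42 differences were below 0, as were 50.7% of all. MCAO arrays lay below all sham arrays for 14 members, against 8.2% of all probe sets. With an array left out after centring, a setting chosen after the data were seen, the count was 1 to 10, and it was 1 without sham replicate 3, sham replicate 4 or MCAO replicate 2. On the deposited scale the count of 14 depended on single arrays. It was 6 without sham replicate 2, 7 without sham replicate 4, 9 without MCAO replicate 1 and 6 without MCAO replicate 2. The calls of Mir673, Mir329, Mir543, Mir539, Mir382 and Mir134 were kept whichever array was left out, whereas those of the other 8 were lost without sham replicate 2, among other arrays.

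**Figure D1:**
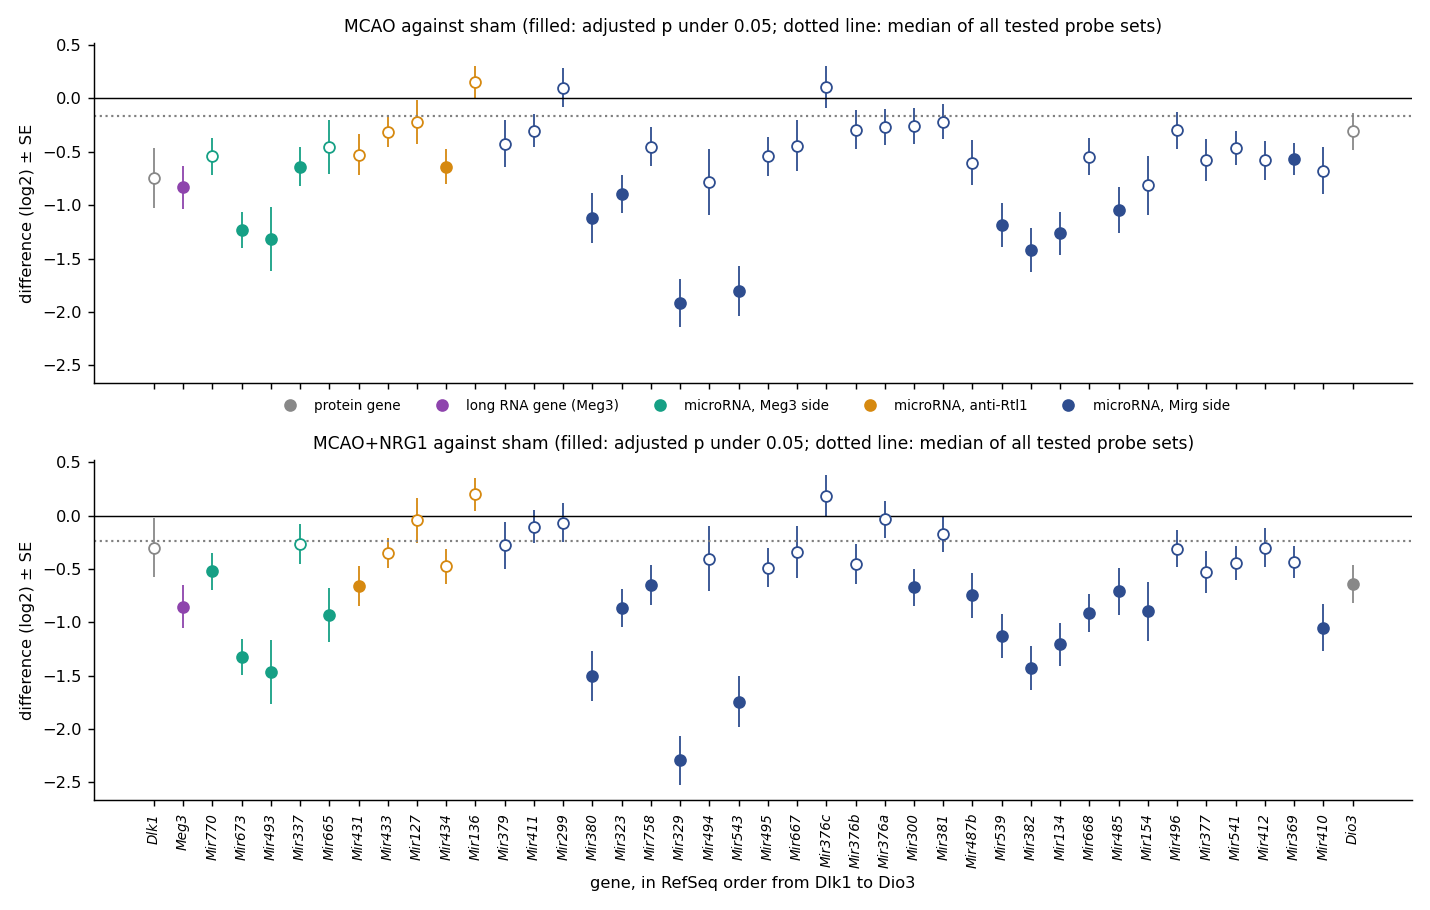
Difference from sham (log2, y axis; points with SE) of the 42 members in RefSeq gene order from Dlk1 to Dio3 (x axis), for MCAO in the upper panel and MCAO+NRG1 in the lower. Filled points passed an adjusted p under 0.05 (14 and 21 members), all of them below 0, and the dotted line is the median of all tested probe sets (−0.16 and −0.24).

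Meg3 is the long noncoding RNA that lies first among the maternal transcripts. Its level was 6.89, 6.49, 6.31 and 6.16 log2 in sham, 5.90, 5.59 and 5.40 in MCAO, with 5.35, 5.92 and 5.56 in MCAO+NRG1. All 6 occluded arrays were thus below all 4 sham arrays, and every value was above background. Meg3 fell by 0.83 ± 0.20 log2 (difference ± SE), or 1.78-fold, in MCAO (adjusted p = 0.0283 in limma), and by 0.85 ± 0.20 in MCAO+NRG1. After median centring the adjusted p of the first was 0.0884.

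Dlk1 codes for a membrane protein of the Notch ligand type and Dio3 for the deiodinase that inactivates thyroid hormone, and they mark both ends of the domain. Dlk1 stood at 6.98, 6.61, 6.71 and 5.77 log2 in sham, 5.90, 5.88 and 5.53 in MCAO, with 5.66, 6.85 and 6.15 in MCAO+NRG1. Here sham and occluded arrays overlapped, since sham replicate 4 was as low as the MCAO arrays and MCAO+NRG1 replicate 2 as high as sham, and the difference of MCAO from sham, −0.75 ± 0.28, did not pass (adjusted p = 0.0964 in limma). Dio3 stood at 5.18, 5.32, 5.45 and 5.30 in sham, 5.13, 4.94 and 4.94 in MCAO, with 5.0, 4.73 and 4.28 in MCAO+NRG1. Each MCAO array lay below each sham array, but by little, and the difference of −0.31 ± 0.17 did not pass (adjusted p = 0.245 in limma).

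The microRNA genes next to Meg3 had 3 of 5 members called lower in MCAO, with a median of −0.64 log2. Of all probe sets 5.61% were called lower. After median centring 1 of the 5 was called, Mir673, beside 1.06% of all probe sets. Mir673 stood at 4.96, 4.82, 5.13 and 5.09 log2 in sham, 3.99, 3.80 and 3.51 in MCAO, with 3.83, 3.44 and 3.76 in MCAO+NRG1. The sham arrays were all above background and the 6 occluded arrays all below it, without overlap. Mir673 was lower by 1.23 ± 0.17 log2 in MCAO (adjusted p = 0.00320 in limma), and when values under background are set to the background level it was at least 1.28-fold lower. Mir493 was at 6.04, 5.21, 4.98 and 4.92 in sham and at 4.51, 3.93 and 3.47 in MCAO, again on either side of the background level. It was lower by 1.32 ± 0.30, at least 1.56-fold (adjusted p = 0.0234), and Mir337, whose level was under background in every group, by 0.64 ± 0.18. Mir770, above background in every array, stood at −0.54 ± 0.17 and just missed the threshold (adjusted p = 0.0613), and Mir665 at −0.45 ± 0.25 (adjusted p = 0.240). Mir540, a microRNA gene of the same stretch that is no member, fell by 1.10 ± 0.20 (adjusted p = 0.0126).

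The microRNA genes antisense to Rtl1, whose microRNAs are known in mouse to act on the Rtl1 messenger, had 1 of 5 members called lower and a median of −0.31 log2. After median centring none of the 5 was called, and the shares of all probe sets were 5.61% before centring and 1.06% after it. Whether the groups of genes along the region differ was not tested. Mir434 fell by 0.64 ± 0.16 log2 (adjusted p = 0.0336 in limma), with sham arrays between 3.08 and 3.50 and MCAO arrays between 2.42 and 2.90, all under background. Mir127 stood at −0.22 ± 0.21 and Mir431 at −0.53 ± 0.19, both above background in their mean and neither called. Mir136, at 0.15 ± 0.15, was the largest difference upward among the members.

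The long group on the Mirg side, from Mir379 to Mir410, had 9 of 29 called lower and a median of −0.56 log2. After median centring 6 of the 29 were called, and the shares of all probe sets were 5.61% before and 1.06% after it. On the deposited scale Mir329 had the largest difference of all members, −1.92 ± 0.23 log2 (adjusted p = 0.00166 in limma). Its level was 5.33, 5.61, 5.31 and 4.64 log2 in sham, 3.29, 3.00 and 3.64 in MCAO, with 2.98, 3.22 and 2.59 in MCAO+NRG1. The occluded arrays were all under background and sham replicate 4 was just under it, so that the fall was at least 1.49-fold and its full size is not exact.

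Mir543 lay close to Mir329 in the gene order and stood next to it in size. It was at 5.70, 5.56, 5.76 and 5.87 log2 in sham, 4.53, 4.05 and 3.17 in MCAO, with 4.01, 3.80 and 4.12 in MCAO+NRG1. Every occluded array was below every sham array, whereas MCAO and MCAO+NRG1 overlapped. The sham arrays lay close together (SD 0.13) while the MCAO arrays were spread more widely (SD 0.69). The difference was −1.80 ± 0.24 (adjusted p = 0.00265 in limma), at least 2.11-fold.

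Mir382 and Mir134 are neighbours, both above background in sham. Mir382 was at 6.22, 5.38, 5.86 and 5.41 log2 in sham, 4.45, 4.29 and 4.15 in MCAO, with 4.25, 4.05 and 4.55 in MCAO+NRG1, a fall of 1.42 ± 0.21 in MCAO (adjusted p = 0.00408 in limma) and of at least 2.10-fold. Mir134 was at 5.78, 6.41, 6.05 and 6.38 in sham, 5.19, 4.77 and 4.72 in MCAO, with 4.58, 5.16 and 5.09 in MCAO+NRG1. Its MCAO arrays stayed just above background and below all sham arrays, and the fall was 1.26 ± 0.20, or 2.40-fold (adjusted p = 0.00717 in limma). Mir758, of the same group and above background in every array, stood at −0.45 ± 0.19 and was not called (adjusted p = 0.127).

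**Figure D2:**
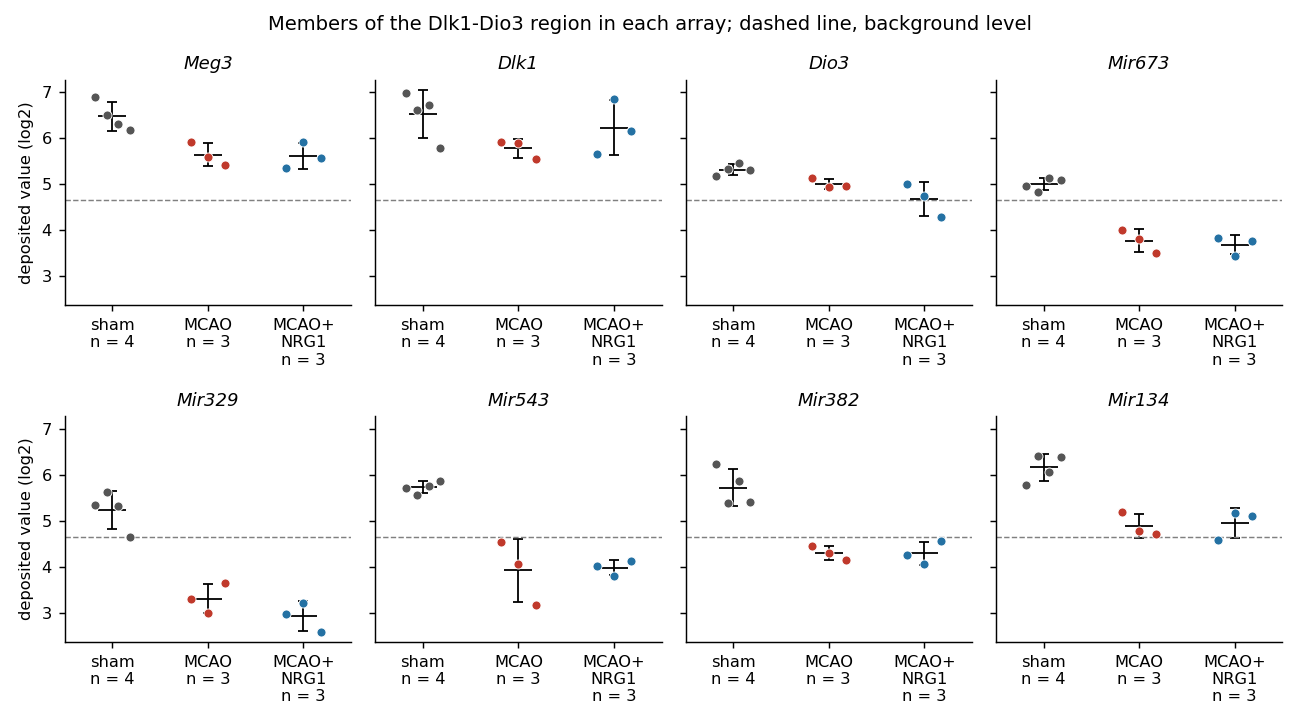
Level (deposited log2 value, y axis) of 8 members in each array of the 3 groups (points), with mean and SD (bars) and the background level of 4.65 log2 (dashed). Mir673, Mir329, Mir543 and Mir382 lie below the line in all 6 occluded arrays, while Dlk1 overlaps between the groups.

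Dimmer members of the Mirg side moved in the same direction, but at levels that carry little information on size. Mir539 was between 4.08 and 4.85 log2 in sham and between 2.96 and 3.43 in MCAO (−1.19 ± 0.20, adjusted p = 0.00993 in limma), and Mir380 between 3.75 and 4.87 and between 2.99 and 3.39 (−1.12 ± 0.23, adjusted p = 0.0188). Mir323 (−0.89 ± 0.18), Mir485 (−1.04 ± 0.22) and Mir369 (−0.56 ± 0.15) completed the calls. Of the 14 called members, 6 had means under background in sham and in MCAO, and another 6 were above it in sham and under it in every MCAO array. Of the members with a mean under background 10 of 31 were called, and of those above it 4 of 11, beside 6.47% and 5.2% of all probe sets of these classes. The 28 members that were not called had differences from −0.82 (Mir154) to 0.15 (Mir136), and 5 of them, Mir154, Mir494, Dlk1, Mir410 and Mir487b, lay under −0.60 with SE of 0.21 to 0.31. Nearest to the threshold without passing it were Mir412 (−0.58 ± 0.18, adjusted p = 0.0608), Mir770 and Mir668 (−0.54 ± 0.18, adjusted p = 0.0650).

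In MCAO+NRG1 compared with sham, 21 of 42 members were called lower and none higher, beside 15.8% and 1.51% of all probe sets, and the median over the members was −0.53 log2. Below 0 were 40 differences (75.9% of all probe sets), and at an unadjusted p under 0.05, 28 members passed (36.0%). Every MCAO+NRG1 array was below every sham array for 25 members, against 34.2% of all probe sets. Mir329 (−2.29 ± 0.23 log2, adjusted p = 9.63e-05 in limma), Mir543 (−1.75 ± 0.24), Mir380 (−1.50 ± 0.23), Mir493 (−1.47 ± 0.30), Mir382 (−1.43 ± 0.21), Mir673 (−1.32 ± 0.17), Mir134 (−1.21 ± 0.20), Mir539 (−1.13 ± 0.20) and Mir410 (−1.05 ± 0.22) had the largest differences. Falls between 0.52 and 0.93 log2 were seen for Meg3, Mir770, Mir665, Mir431, Mir323, Mir758, Mir300, Mir487b, Mir668, Mir485, Mir154 and Dio3. Above background 9 of 11 members were called, beside 16.2% of all probe sets of this class, and under it 12 of 31, beside 14.8%. Of the 21, 11 were also called between MCAO and sham. The 2 comparisons share the 4 sham arrays, so that this number is no measure of a common response.

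Among the members called in MCAO+NRG1 but not in MCAO, those above background in their mean were Mir770, Mir758, Mir665, Mir431 and Dio3. Mir770 was at 6.10, 6.39, 6.30 and 6.30 log2 in sham, 5.91, 5.32 and 5.96 in MCAO, with 5.70, 5.82 and 5.73 in MCAO+NRG1. All occluded arrays were below sham, and the MCAO arrays were the more widely spread (SD 0.36 and 0.06). Mir665 was at 5.55, 5.63, 5.07 and 5.37 in sham and at 4.34, 4.36 and 4.72 in MCAO+NRG1, without overlap, whereas the MCAO values of 5.01, 4.23 and 5.62 reached into the sham range. Mir758 was at 5.96, 6.11, 6.20 and 5.93 in sham and at 5.56, 5.31 and 5.34 in MCAO+NRG1, and in MCAO 1 of 3 arrays, at 6.07, was within the sham range and the others, at 5.23 and 5.50, below it. Thus for Mir665 and Mir758 the 2 occluded groups overlapped, and the difference between them was not called. Mir668 and Mir410, both under background, stood at −0.54 ± 0.18 and −0.68 ± 0.22 in MCAO and at −0.91 ± 0.18 and −1.05 ± 0.22 in MCAO+NRG1.

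After median centring, 9 of the 42 were called lower than sham, beside 1.56% of all probe sets, and none higher, beside 3.82%. The median was −0.26 log2, with 35 differences below 0 (46.6% of all), and MCAO+NRG1 arrays lay below all sham arrays for 15 members (9.22% of all). The 9 were Mir673, Mir380, Mir329, Mir543, Mir539, Mir382, Mir134, Mir668 and Mir410. With an array left out after centring, 2 to 10 were called lower, with 2 without MCAO+NRG1 replicate 1. On the deposited scale the count of 21 was 13 without sham replicate 2, 13 without MCAO+NRG1 replicate 1 and 12 without MCAO+NRG1 replicate 3. The calls of 11 members were kept whichever array was left out, and those of Meg3, Mir770, Mir665, Mir431, Mir758, Mir300, Mir487b, Mir485, Mir154 and Dio3 were not. For Dio3 the difference was −0.64 ± 0.17 (adjusted p = 0.0243), and 0.204 after centring.

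Whether NRG1 altered the region was asked by comparing the 2 occluded groups directly. None of the 42 members was called in limma (0.0054% of all probe sets were called lower and 0.0% higher, and 0.00793% lower among those above background), and 1 had an unadjusted p under 0.05, beside 3.21% of all probe sets. This was Mir300, at −0.42 ± 0.18 log2 (unadjusted p = 0.0364 in limma, adjusted p = 0.999), under background in both groups. With an ordinary variance in place of the moderated one, none was called either. Of the differences, 23 were above 0 and 19 below, with a median of 0.03 log2, whereas 68.6% of all probe sets were below 0, with a median of −0.08. After median centring 13 members were below 0, beside 43.1% of all.

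The differences that were largest upward were Dlk1 (0.44, 95% interval −0.19 to 1.07), Mir494 (0.38, −0.32 to 1.07, and −0.15 without MCAO replicate 3) and Mir337 (0.37, −0.04 to 0.79), and those largest downward Mir665 (−0.48, −1.05 to 0.09), Mir300 (−0.42, −0.80 to −0.03) and Mir380 (−0.39, −0.91 to 0.14). Each is given on the log2 scale. The occluded groups did not overlap for Mir337 and Mir300, 2 of 42 members beside 5.74% of all probe sets. The members that fell most in MCAO had, between the occluded groups, differences of 0.06 for Mir543 (95% interval −0.48 to 0.60), −0.01 for Mir382 (−0.47 to 0.46), 0.05 for Mir134 (−0.40 to 0.51), −0.09 for Mir673 (−0.47 to 0.29) and −0.02 for Meg3 (−0.47 to 0.43). For Mir329 it was −0.38 (−0.90 to 0.14). The half-width of the 95% interval was 0.32 to 0.70 log2, with a median of 0.42, and for 29 of the 42 members the interval reached past a difference of 0.5 in at least 1 direction, so that differences of this size were not excluded by these arrays.

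**Figure D3:**
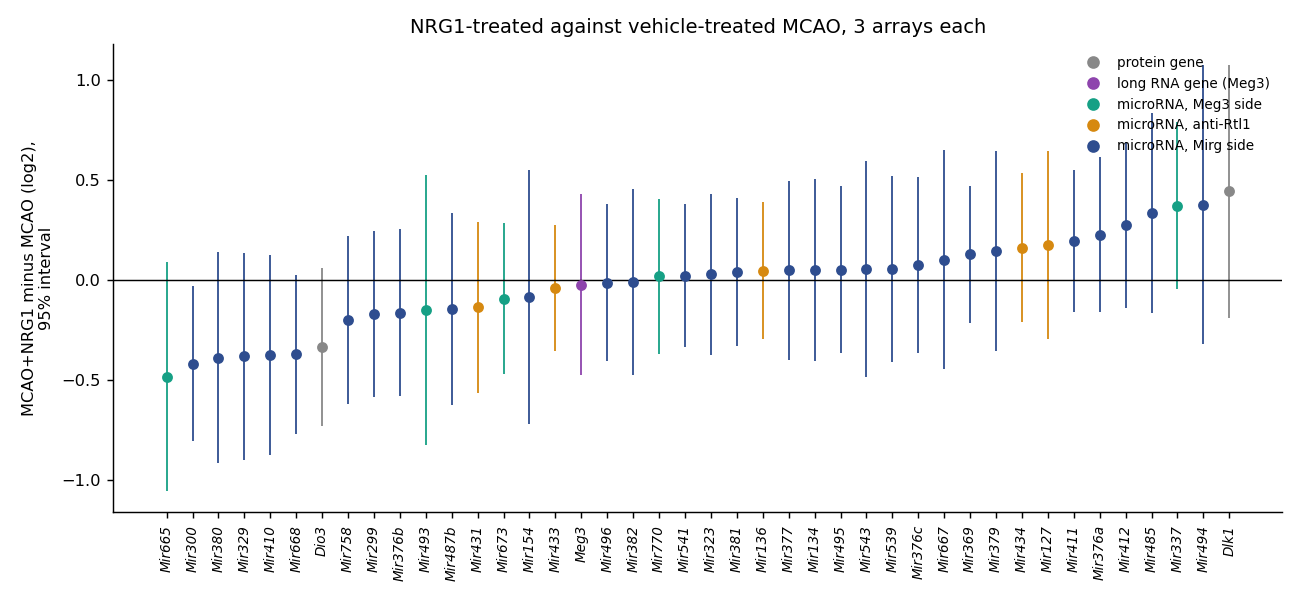
MCAO+NRG1 minus MCAO (log2, y axis) for the 42 members, ordered by size (x axis), with 95% intervals from limma, 3 arrays per group. The points run from −0.48 (Mir665) to 0.44 (Dlk1), and the interval of Mir300 alone leaves out 0.

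Taken per array, the median level of the members was 4.63, 4.07, 3.98 and 3.96 log2 in sham, 3.40, 3.53 and 3.38 in MCAO, with 3.03, 3.41 and 3.40 in MCAO+NRG1. All 6 occluded arrays were below all sham arrays, as they also were for the median of the 310 microRNA genes elsewhere. This holds for MCAO replicate 3 too, whose median over the single-symbol probe sets, 6.12, was not below those of sham. Over every probe set of the table, unnamed ones included, it was 4.92, under the sham arrays (4.95 to 5.14). Relative to the array's own median, the members stood at −1.48, −1.99, −2.07 and −2.09 in sham, −2.39, −2.29 and −2.73 in MCAO, with −2.78, −2.40 and −2.39 in MCAO+NRG1. Sham replicate 1 was apart from the other 3 sham arrays, and without it 17 members were called lower in MCAO and 21 in MCAO+NRG1. Without sham replicate 1 and MCAO replicate 3 together, a setting chosen after the data were seen, the counts were 19 and 25.

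The 310 microRNA genes elsewhere in the genome had 23 called lower and none higher in MCAO (7.42%), with a median difference of −0.25 log2, and 63 lower and 2 higher in MCAO+NRG1 (20.3% lower), with a median of −0.29. The corresponding shares of the 39 member microRNA genes were 33.3% and 48.7%. After median centring, 4 of the 310 were lower and 2 higher in MCAO, and the median was −0.09. Per array, the median level of the 310 was 3.63 to 3.78 log2 in sham and 3.30 to 3.41 in the occluded arrays, without overlap. Relative to the array's own median the ranges overlapped, at −2.48 to −2.28 and −2.77 to −2.38. Whether the members differ from these genes was not tested.

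**Figure D4:**
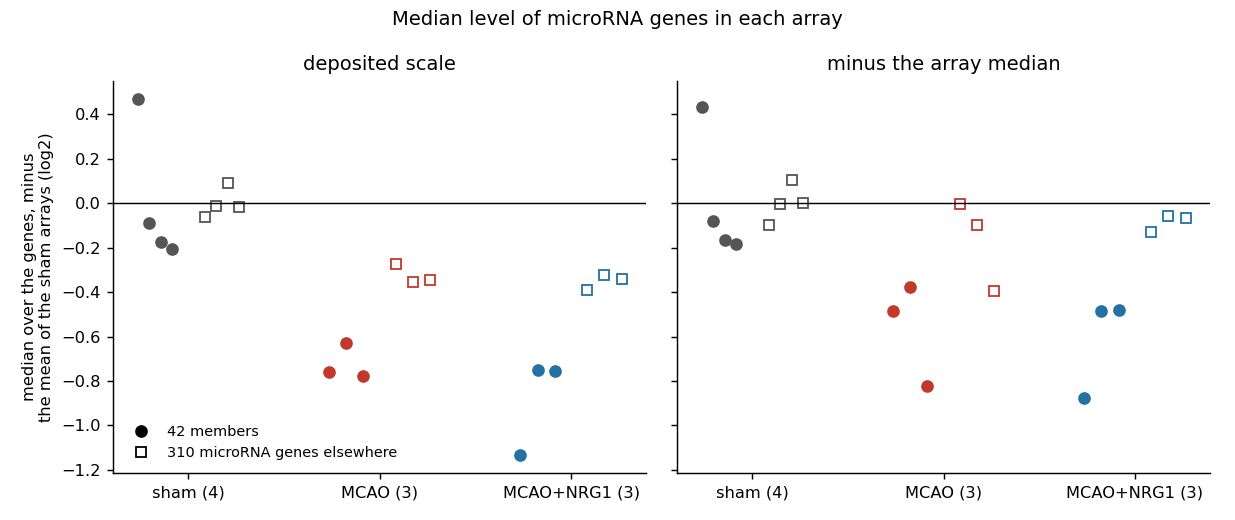
Median level of the 42 members (filled circles) and of 310 microRNA genes elsewhere (open squares) in each array, minus the mean of the 4 sham arrays (log2, y axis), on the deposited scale and after the array median was subtracted. The 6 occluded arrays lie below the 4 sham arrays for the members in both panels, and for the genes elsewhere on the deposited scale only.

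Of the 14 further microRNA genes of the region, 5 lie on the plus strand with the members, and 3 of these were called lower in MCAO, namely Mir540, Mir544 (−1.12 ± 0.21 log2, adjusted p = 0.0129 in limma) and Mir409 (−1.01 ± 0.26, adjusted p = 0.0369). RefSeq places the other 9 on the minus strand, each overlapping a plus-strand hairpin by 63 to 85 bases. Of these 9 pairs, the plus-strand gene was called lower in 7 and the minus-strand gene in 1, Mir3581 (−0.69 ± 0.19, adjusted p = 0.0431), the partner of Mir409. The plus-strand difference was the lower one in 8 of 9 pairs. In MCAO+NRG1 against sham the calls were 4 and 2. Beside these counts, 5.61% of all probe sets were called lower in MCAO and 15.8% in MCAO+NRG1. Whether the strands differ was not tested.

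The hairpins of 2 such pairs are printed because they show how much sequence the partners share while their values differ. They are RefSeq hairpins of GRCr8, with the annotated mature arms in capitals, at chr6:134569944-134570023 (Mir382, plus strand), chr6:134569927-134570042 (Mir3592, minus strand), chr6:134563598-134563673 (Mir539, plus strand) and chr6:134563578-134563692 (Mir3576, minus strand).
Mir382: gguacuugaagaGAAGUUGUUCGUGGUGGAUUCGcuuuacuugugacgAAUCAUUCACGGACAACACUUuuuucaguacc
Mir3592: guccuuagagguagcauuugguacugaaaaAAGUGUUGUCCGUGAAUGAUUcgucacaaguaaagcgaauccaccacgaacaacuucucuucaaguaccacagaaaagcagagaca
Mir539: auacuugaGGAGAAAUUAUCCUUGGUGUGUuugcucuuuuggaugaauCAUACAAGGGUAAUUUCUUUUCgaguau
Mir3576: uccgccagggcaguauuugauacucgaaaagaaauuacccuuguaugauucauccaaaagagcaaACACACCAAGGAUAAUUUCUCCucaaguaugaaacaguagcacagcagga

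All 80 bases of the Mir382 hairpin lie within that of Mir3592 on the other strand, and all 76 of Mir539 within that of Mir3576. Mir382 fell by 1.42 ± 0.21 log2 in MCAO, whereas Mir3592 stood at −0.51 ± 0.16 (adjusted p = 0.0557 in limma). Mir539 fell by 1.19 ± 0.20, whereas Mir3576 stood at 0.29 ± 0.15 (adjusted p = 0.211). In MCAO+NRG1 against sham both genes of the first pair were called lower. Mir382 stood there at −1.43 ± 0.21 and Mir3592 at −0.49 ± 0.16 (adjusted p = 0.0418 in limma, and 0.351 after median centring). Of the second pair Mir539 was called lower (−1.13 ± 0.20) and Mir3576, at 0.05 ± 0.15, was not. The minus-strand probe sets of these pairs were under background in every group, and which strand each probe set detects was not given in the sources used here.

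**Figure D5:**
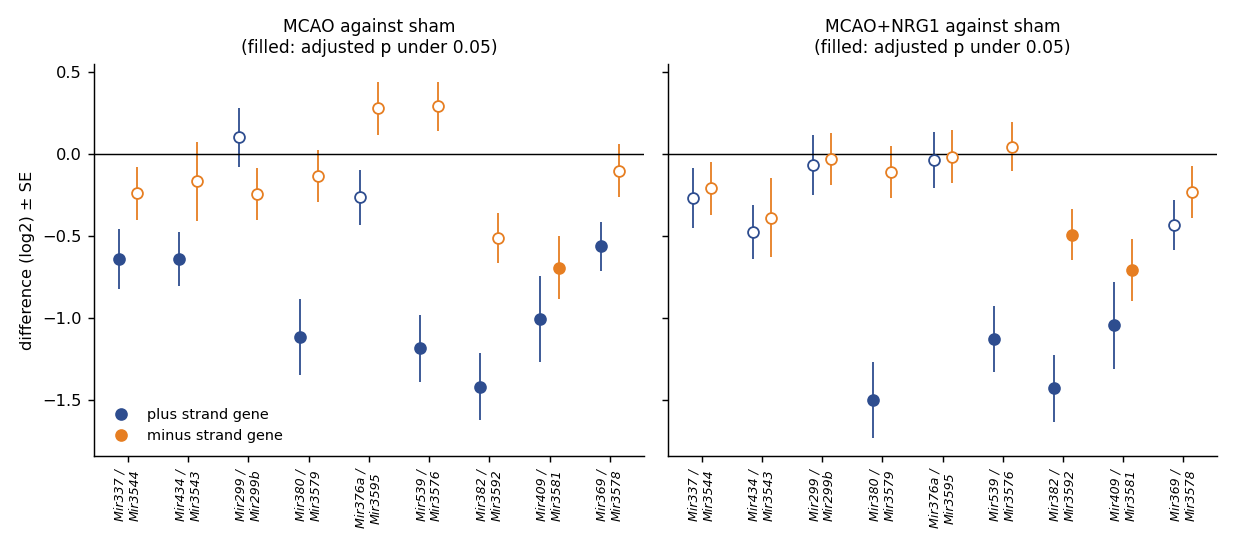
Difference from sham (log2 ± SE, y axis) of 9 pairs of microRNA genes whose hairpins overlap on opposite strands (x axis), for MCAO and MCAO+NRG1. Filled points passed an adjusted p under 0.05, which were 7 plus-strand and 1 minus-strand genes in MCAO and 4 and 2 in MCAO+NRG1. Of all probe sets, 5.61% were called lower in MCAO and 15.8% in MCAO+NRG1.

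Because Meg3, the first of the maternal transcripts, was among the called members, its promoter is shown. It is the RefSeq sequence of GRCr8 at chr6:134273806-134274105, plus strand, from 250 bases before to 50 bases after the annotated start.
Meg3: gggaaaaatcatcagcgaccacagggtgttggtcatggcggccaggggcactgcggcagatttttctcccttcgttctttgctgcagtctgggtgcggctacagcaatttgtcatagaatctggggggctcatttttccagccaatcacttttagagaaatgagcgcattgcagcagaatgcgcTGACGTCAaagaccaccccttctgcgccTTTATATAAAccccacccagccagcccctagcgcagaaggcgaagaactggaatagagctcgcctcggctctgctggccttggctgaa

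The capitals mark 2 motifs that were searched on both strands, TGACGTCA, the full cyclic AMP response element, and TATAAA, the core of a TATA box, which is found here on either strand with the matches overlapping. TGACGTCA starts 66 bases before the annotated start and occurs in 1.83% of 33469 promoter windows of the same length. TATAAA starts 34 bases before it on the strand of the gene and occurs in 14.2%. The windows of Dlk1 and Dio3 hold no TGACGTCA, and that of Dio3 holds TATAAA. A match describes the letters of the window and not binding.

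Among all probe sets 5.61% were called lower in MCAO and 15.8% in MCAO+NRG1, each against sham. Of 13 flanking genes, 1 was lower in MCAO, Degs2, a sphingolipid desaturase gene, by 1.33 ± 0.27 log2 (adjusted p = 0.0170 in limma). Begain, the neighbour on the Dlk1 side, stood at −0.32 ± 0.16. In MCAO+NRG1 against sham 3 of the 13 were lower, Degs2 (−2.04 ± 0.27), Slc25a47 (−0.72 ± 0.21) and Yy1 (−0.48 ± 0.15), of which Degs2 passed after median centring. Of 15 genes of microRNA processing none was called in either direction in MCAO, with Ddx5, a helicase of the Drosha complex, at 0.48 ± 0.19 and Tarbp2, a partner of Dicer, at −0.41 ± 0.20. In MCAO+NRG1 1 was lower, Tarbp2 (−0.65 ± 0.20, adjusted p = 0.0345), and after median centring none, while Ddx5 was then higher. Of 12 regulators of the region 2 were lower in MCAO. They were Mef2d (−0.68 ± 0.18, adjusted p = 0.0392), a member of the MEF2 family that activates the Mirg microRNAs in rat neurons, and the DNA methyltransferase gene Dnmt3b (−0.76 ± 0.20, adjusted p = 0.0399). Neither passed after median centring, when Rybp, a Polycomb component, was called higher (centred difference 0.56, adjusted p = 0.0453). Mef2c, of the same family, stood at 0.15 ± 0.15. The median of the regulators was −0.41 log2. In MCAO+NRG1 against sham 6 of the 12 were lower, beside 15.8% of all probe sets. They were Mef2b (−0.88 ± 0.19), Mef2d (−0.80 ± 0.18), Dnmt3a (−0.73 ± 0.16), Dnmt3b, Aff3 and Trim28. None of these 6 passed after median centring.

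Of 4 measured neuronal targets of miR-134, Limk1 was lower in MCAO (−0.63 ± 0.16 log2, adjusted p = 0.0331 in limma), with an adjusted p of 0.0694 after median centring. It was lower in MCAO+NRG1 too (−0.55 ± 0.16), and not after centring (adjusted p = 0.203). In MCAO Creb1 stood at 0.59 ± 0.24, Pum2 at 0.07 ± 0.17 and Dcx at 0.04 ± 0.17, and none of these passed. Of 17 genes imprinted elsewhere, Igf2, a growth factor gene, was lower (−0.78 ± 0.16, adjusted p = 0.0175) and Zdbf2, a zinc finger gene, higher (0.79 ± 0.19, adjusted p = 0.0289). The median of the 17 was −0.11 log2, and of all probe sets 5.61% were called lower and 1.1% higher. After median centring Igf2 stayed lower, and Zdbf2 and Ube3a were called higher (adjusted p = 0.0457 in limma for Ube3a). In MCAO+NRG1 against sham 3 of the 17 were lower and 2 higher, beside 15.8% and 1.51% of all probe sets. After centring these counts were 1 and 2.

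The whole-tissue marker lists moved as follows beside the members. Among all probe sets 5.61% were called lower and 1.1% higher in MCAO against sham. In MCAO none of 10 neuron, 7 astrocyte, 7 oligodendrocyte and 8 microglia markers was called, nor any of 6 cortical layer, 6 choroid plexus or 5 neutrophil markers. Of 8 striatal markers 1, Tac1, was called higher, and all 8 differences were above 0 (median 0.40 log2). Between the occluded groups none of the 8 was called, and all were below 0 (median −0.42). The mean of the 8 was 8.11 to 8.68 in sham, 8.69 to 9.20 in MCAO and 7.85 to 8.88 in MCAO+NRG1. In MCAO, of 5 mural markers 1, Pdgfrb, was lower, of 6 endothelial markers 3 were, among them Sox17 (−1.09 ± 0.15 log2), and of 7 meningeal and perivascular fibroblast markers 4, among them Col1a2 (−1.32 ± 0.29) and Igf2 again. After median centring 1 endothelial marker, Sox17, and 1 fibroblast marker, Igf2, stayed called lower in MCAO, beside 1.06% of all probe sets. No mural marker did. The mean level of the 6 endothelial markers was 6.92 to 7.21 log2 in sham, 6.07 to 6.44 in MCAO and 5.53 to 6.40 in MCAO+NRG1, and that of the 7 meningeal markers 7.05 to 7.38, 6.48 to 6.67 and 6.12 to 6.58. The mean level of the 6 choroid plexus markers ranged from 5.04 to 7.04 across the sham arrays and from 4.31 to 4.75 across the occluded arrays. Against sham, MCAO+NRG1 had 6 of 6 endothelial, 5 of 6 choroid plexus, 3 of 5 mural and 4 of 7 meningeal markers called lower. The shares beside these were 21 of 42 members and 15.8% of all probe sets. After median centring the marker counts were 2, 0, 0 and 4, beside 1.56% of all probe sets. Before centring none of the neuron, astrocyte, oligodendrocyte, microglia or striatal markers was called there, and 1 of 6 cortical layer markers was lower. The part of these cells in the values of the members was not tested.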

How the data were processed

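Total RNA of the left cortex of 10 rats was hybridised to Affymetrix Rat Gene 2.0 ST arrays 3 hours after surgery. The deposited values are log2 values that the authors computed by RMA in the oligo package, which corrects background, equalises the arrays' quantiles and summarises probes (versions not stated). The table holds 36685 probe sets, and the array medians over them still differed, from 4.66 to 5.14 log2. The platform annotation lists 1 symbol for 18511, several for 575 and none for 17599. The annotation's genome build is not given in the sources used here, so that gene order and sequences come from RefSeq (GRCr8).

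Groups were taken from the sample titles. The members and the lists were chosen with earlier results of these data known. One limma 3.58.1 model (R 4.3.3) with 3 groups was fitted on all single-symbol probe sets, with 3 contrasts, a moderated F test and Benjamini-Hochberg adjustment over 18511. It was also run on simulated data with independent normal noise and no shift between arrays. That run cannot show how the shift between the real arrays affects the counts. Arrays give no read depth, and their number limits the precision. The p-values set each difference against the spread between animals within groups, pooled over the 3 groups and moderated over all probe sets. Named were the members called in any contrast, the protein and long RNA genes, the 5 of highest mean, the 3 nearest to the threshold, the 3 largest in each direction between the occluded groups, and up to 4 genes per other list. Mir540, Mir544, Mir409 and the minus-strand genes were named after their values were seen, as were Rybp, Mef2c, Dnmt3a, Aff3 and Trim28. The "at least" folds set values under the background level to that level. Alternatives were median centring, quantile normalization, leaving out dim probe sets, all probe sets, a replicate block, separate fits of 2 groups, a robust fit with trend, weights per array, unmoderated variances, 1 probe set per symbol, unadjusted p and leaving out each array.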

Additional observations from a re-analysis of the deposited data

Results flagged for a closer look

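In the 4 sham arrays 1 array lay far from the other 3 in 4 of 43 values examined, where chance alone gives about 1 in 20 of independent values. The 43 values share the same 4 arrays, and 1 of them is the median over the members. The count is therefore no measure of an excess over chance. For Mir154, sham replicate 1 stood at 5.07 log2 and the others at 3.64 to 3.80, a gap of 0.887 of the range. For Mir541, sham replicate 4 stood apart at 3.66, above 3.27 to 3.34 (0.836), and for Mir369 sham replicate 3 at 2.93, under 3.07 to 3.09 (0.859). The median over the members was 4.63 in sham replicate 1 and 3.96 to 4.07 in the others (0.831). Mir154, Mir541 and Mir369 were under background in the mean.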

How the results depend on the processing

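The count of 14 members called between MCAO and sham was 7 after median centring, 7 after quantile normalization, 4 of 11 without dim probe sets, 6 with all probe sets of the table, 26 with array weights, 5 with an ordinary variance and 28 at an unadjusted p under 0.05. It was 6 to 17 when each array was left out, and 1 to 10 when each array was left out after median centring, a setting chosen after the data were seen. The count of 21 between MCAO+NRG1 and sham was 9 after median centring, 9 after quantile normalization, 9 of 11 without dim probe sets, 13 with all probe sets and 10 with an ordinary variance. It was 12 to 25 with an array left out and 2 to 11 after centring too, the 11, without sham replicate 1, being 10 lower and 1 higher. The cause was not tested, apart from the fewer members tested without dim probe sets. The count between the occluded groups was 0 under all settings but the unadjusted p, which gave 1. By the F test among all groups 17 members were called (11.5% of all probe sets), and 7 after median centring.

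The replicate number as a block gave 10, 0 and 15 members. Same-numbered arrays did not deviate together (correlations 0.09 to 0.17 for number 1, 0.06 to 0.22 for number 2 and −0.19 to −0.06 for number 3), so that the numbers are not taken as pairs. The median over the members for MCAO+NRG1 against sham was −0.26 log2 after centring and −0.31 after quantile normalization. Of 972 alternative values of 50 single differences, 785 kept direction and side of the threshold, 173 lost the call, 8 gained it and 6 changed sign. These were Meg3 between the occluded groups (0.0838 after centring, 0.0694 after quantile normalization, −0.18 to 0.11 with an array left out) and Mir494 (−0.15 to 0.76 with an array left out, the lowest without MCAO replicate 3), none of them called. Mir673, Mir329, Mir543 and Mir382 stayed called between MCAO and sham under each setting named in the methods that tested them, the first 2 being left out with the dim probe sets, but not all 4 when an array was left out after centring. Most members lie under background, which limits the size of every difference given for them.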
